A study of Mus musculus with 2 samples.

Results

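The Mir130 and Mir301 family was followed in whole fetal liver of the mouse through its 4 hairpin genes, Mir130a, Mir130b, Mir301 (the gene of miR-301a) and Mir301b, out of 1973 miRNA gene rows. Each was found by its Ensembl identifier in the mouse GENCODE annotation, and all 4 had a row of their own with counts in both libraries. Small RNA, below 30 in the size range of the labels, had been sequenced from total RNA. The series held 1 group of healthy embryos of the B6NCrl strain at embryonic day 16.5, with no treatment or allele named, whose livers were pooled over both sexes in each of 2 biological replicates. Replicate 2 was a pool of 41 embryos; for replicate 1 the labels state only that embryos were pooled. With no second condition, the questions addressed here are how the family is made up in this organ and how far its members differed between the 2 pools.

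A miRNA is cut from a hairpin into a 5′ and a 3′ arm, and the arm that is loaded into Argonaute finds its messenger RNAs mainly through its seed, bases 2 to 8. Members of a family share the seed and so can repress overlapping sets of messenger RNAs. The Mir130 and Mir301 family acts through its 3′ arms. It is known for repressing the adipogenic receptor gene Pparg and genes of growth and TGF-beta signalling, and miR-130a is a miRNA of hematopoietic progenitors and of endothelium. At this stage the liver makes blood cells while its hepatocytes mature.

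The mature 3′ arms are shown because the seed, in capitals, is what unites the family, and the bases after it are what sets the members apart. Mature and hairpin sequences are from RefSeq (GRCm38.p6, the assembly also called mm10), written 5′ to 3′. All 4 genes matched by symbol. For Mir301b the whole hairpin is shown, with the same letters in capitals.
miR-130a-3p: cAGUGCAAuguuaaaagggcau
miR-130b-3p: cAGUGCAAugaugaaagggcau
miR-301a-3p: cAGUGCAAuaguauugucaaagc
Mir301b hairpin: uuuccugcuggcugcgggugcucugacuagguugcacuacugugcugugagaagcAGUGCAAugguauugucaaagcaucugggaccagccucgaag

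The 3 listed 3′ arms share their first 9 bases, and the family falls into 2 pairs after them. With positions counted from 1 at the 5′ end and the base of the first-named miRNA written first, miR-130a-3p and miR-130b-3p were identical at 20 of 22 positions and differ by U11A and A13G. The best-matching stretch of the Mir301b hairpin (bases 55 to 77) was identical to miR-301a-3p at 22 of 23 positions, with the substitution A10G. Between miR-130a-3p and miR-301a-3p only 12 of 22 positions matched. The longest run of letters common to any 2 of the 4 hairpins was 16 bases, between Mir301 and Mir301b, and none of the 4 shared an 18-base word with any of the other listed hairpins that had a sequence. A read of 18 or more bases that matches a member without error therefore has 1 place among these hairpins.

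The 5′ arms are shown because they do not carry the family seed; their own bases 2 to 8 are in capitals.
miR-130a-5p: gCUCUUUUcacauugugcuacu
miR-130b-5p: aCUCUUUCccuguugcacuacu
miR-301a-5p: gCUCUGACuuuauugcacuacu
miR-301b-5p: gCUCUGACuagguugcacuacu

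Those of Mir301 and Mir301b have 1 seed in common and differ by U10A, U11G and A12G. All 4 end in the same 5 bases. UUGCACU, the reverse complement of the family seed, stands in 3 of the 4 (all but miR-130a-5p), where the arms pair in the hairpin. The deposited counts are per hairpin and hold both arms, so the levels below are those of the hairpin genes and cannot be assigned to the 3′ arm.

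The members come from 3 loci. Mir130a (ENSMUSG00000065484.1; mm10, chromosome 2, 84741115 to 84741178, minus strand) lies between genes, 990 bases from Gm19426 on the same strand, and overlaps no annotated gene on either strand. Mir301 (ENSMUSG00000065589.1; chromosome 11, 87113004 to 87113089, plus strand) lies in an intron of Ska2, a gene of the spindle and kinetochore complex. Mir301b (ENSMUSG00000076288.1; chromosome 16, 17124400 to 17124496, minus strand) and Mir130b (ENSMUSG00000065572.1; chromosome 16, 17124061 to 17124142, minus strand) lie in 1 intron of 2610318N02Rik, with 257 bases between them and Mir301b upstream. The hairpins are 64 bases (Mir130a), 82 bases (Mir130b), 86 bases (Mir301) and 97 bases (Mir301b) long. Their predicted folding energies ran from -22.1 kcal/mol for Mir130a to -39.1 kcal/mol for Mir301b.

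**Figure D1:**
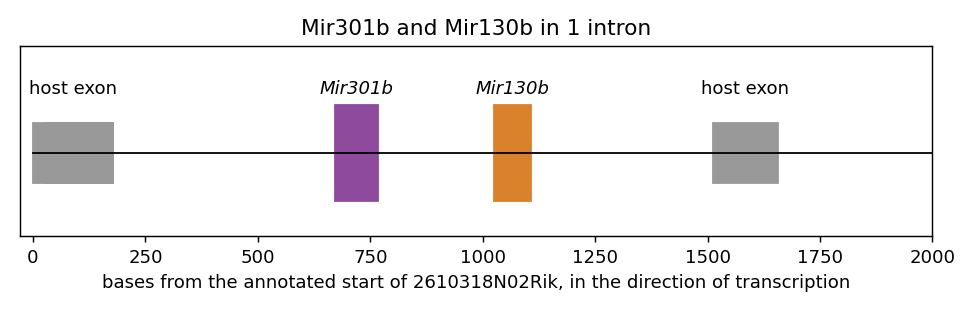
Map of the shared intron, to scale. The x axis gives bases from the annotated start of 2610318N02Rik along its direction of transcription; grey boxes are annotated host exons and coloured boxes the hairpins. Mir301b precedes Mir130b, with 257 bases between them, and neither overlaps an exon.

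Depth allowed all 4 genes to be measured. Counts on the annotated strand came to 5930074 in replicate 1 and 5102289 in replicate 2, so 1 count was worth 0.169 and 0.196 CPM, the unit in which each library is scaled to an equal total. The markers of the labelled tissue were high: the hepatocyte list summed to 220935 ± 1490 CPM (SD, n = 2), mostly Mir122, and the erythroid list to 25611 ± 2179 CPM. The neural list summed to 27.0 CPM and 53.7 CPM, nearly all of it Mir137, and Mir124a-1, Mir124a-3 and Mir9-2 had no count. Mir124a and Mir9 are listed as several gene copies, and reads that map to more than 1 place are in no gene count. Their counts may thus be low, and a count of 0 does not show that the miRNA was absent. The 2 pools were not alike in some markers of other tissues. The epithelial and biliary list stood at 4266 CPM in replicate 1 and 6376 CPM in the other pool, with all 5 members higher past the test described below. The intestinal pair Mir215 and Mir194-1 summed to 26.6 CPM and 427 CPM. The muscle miRNA Mir206 was at 1104 CPM and 2050 CPM and the endocrine pancreas miRNA Mir375 at 1378 CPM and 2086 CPM. The neural Mir137 was at 25.6 CPM and 53.1 CPM. Each was higher in replicate 2 past that test, as the only member of its list. In the muscle list Mir499 (145 CPM and 143 CPM) and Mir133b (14.8 CPM and 12.2 CPM) did not pass. In the pancreas list Mir216b was lower past the test (7.08 CPM and 3.53 CPM), and Mir217 did not pass (8.60 CPM and 13.1 CPM). In bulk liver, fewer cells of a type and less RNA per cell cannot be told apart.

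Together the 4 genes held 2.11% ± 0.08 (SD, n = 2) of all miRNA gene counts. Replicate 1 gave 2.05%, with a 95% Clopper-Pearson interval of 2.04% to 2.06%, and replicate 2 gave 2.17%, with 2.15% to 2.18%. Reads copied by PCR are not separate molecules, so all such intervals hold counting error alone. The intervals of the pools did not overlap, but their distance is small beside the share itself.

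Mir130a, the member known from blood progenitors, carried most of the family. It reached 16428 CPM (97421 counts) in replicate 1 and 17800 CPM (90823 counts) in the other library, a mean of 17114 ± 970 CPM, which placed it 13th among the 1973 genes (16th and 12th in the libraries). Mir130b, its closest relative by sequence, had 21005 counts (3542 CPM) and 15891 counts (3114 CPM), a mean of 3328 ± 302 CPM, at rank 53. Both libraries put Mir130a far above Mir130b, 4.64-fold in replicate 1 and 5.72-fold in the other.

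The Mir301 pair was lower. Mir301 had 3058 counts (516 CPM) and 3594 counts (704 CPM), a mean of 610 ± 133 CPM, at rank 103. Mir301b, the closest relative of Mir301 by sequence, had 219 counts (36.9 CPM) and 182 counts (35.7 CPM), a mean of 36.3 ± 0.891 CPM, at rank 222. The order Mir130a, Mir130b, Mir301, Mir301b was the same in both libraries, and no member's range overlapped that of its neighbour in the order. It is the reverse of the order of hairpin length; CPM are not divided by length.

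**Figure D2:**
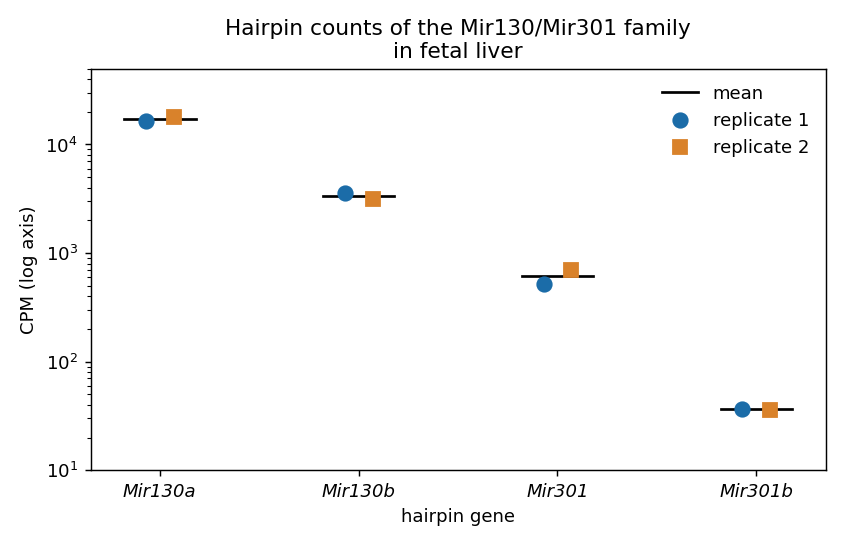
Level of each member in CPM on a log axis. Circles are replicate 1, squares replicate 2 and bars their mean. Means fall from 17114 CPM for Mir130a to 36.3 CPM for Mir301b, and the ranges of the 4 genes do not overlap.

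The order holds for hairpin counts. A bias between sequences in ligation or amplification would be shared by both libraries and is not in the SDs; it was not tested. Multimapping reads, 28.1% and 28.2% of the reads tallied, are in no gene count.

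The members were close to their neighbours in the ranking of all genes. Mir130a stood between Mir223, a miRNA of granulocytes and monocytes (17149 ± 537 CPM), and Mir451a, an erythroid miRNA (16978 ± 722 CPM). Mir130b stood between Mir140 (3516 ± 270 CPM) and Mir92-1 (3269 ± 703 CPM), Mir301 between Mir29a (662 ± 87.8 CPM) and Mir16-2 (600 ± 79.4 CPM), and Mir301b between Mir128-2 (37.6 ± 1.43 CPM) and Mir877 (35.8 ± 5.17 CPM). Each of these gaps was smaller than the SD of at least 1 of the 2 genes. For 7 of the 8 neighbours the order differed between the libraries; the exception was Mir140, which was above Mir130b in both, at 3707 CPM and 3325 CPM. Mir92-1, Mir16-2, Mir128-2 and, below, Mirlet7c-1 belong to miRNAs with a near-identical copy elsewhere, and their counts may be low because multimapping reads are not in them.

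By likeness of level over the 2 libraries (Euclidean distance of log2(CPM + 1)), the 3 genes closest to Mir130a were Mir451a (0.03), Mir223 (0.04) and Mir143 (0.13). Those closest to Mir130b were Mir140 (0.11), Mir92-1 (0.19) and Mir151 (0.20). Mir301 had Mir16-2 (0.13), Mir872 (0.26) and Mir186 (0.36), and Mir301b had Mir128-2 (0.11), Mirlet7c-1 (0.15) and Mir877 (0.17). With 2 libraries, this likeness is mainly one of level.

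The make-up of the family differed between the pools beyond counting error for 3 of the 4 members. These are the members above 100 CPM, a level at which 79.2% of genes differed between the pools by the exact test described below. Shares of 1 family add up to the whole, so a change in 1 moves the others and they are not separate results. Mir130a made up 80.0% of family counts in replicate 1 (interval 79.8% to 80.3%) and 82.2% in replicate 2 (82.0% to 82.4%). Mir130b went the other way, with 17.3% (17.05% to 17.5%) and 14.4% (14.2% to 14.6%). Mir301 made up 2.51% (2.43% to 2.60%) and 3.25% (3.15% to 3.36%). For Mir301b the shares were 0.180% (0.157% to 0.205%) and 0.165% (0.142% to 0.190%), with intervals that overlap. Means over the 2 libraries were 81.1% ± 1.52, 15.8% ± 2.03, 2.88% ± 0.52 and 0.172% ± 0.011 (SD, n = 2).

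**Figure D3:**
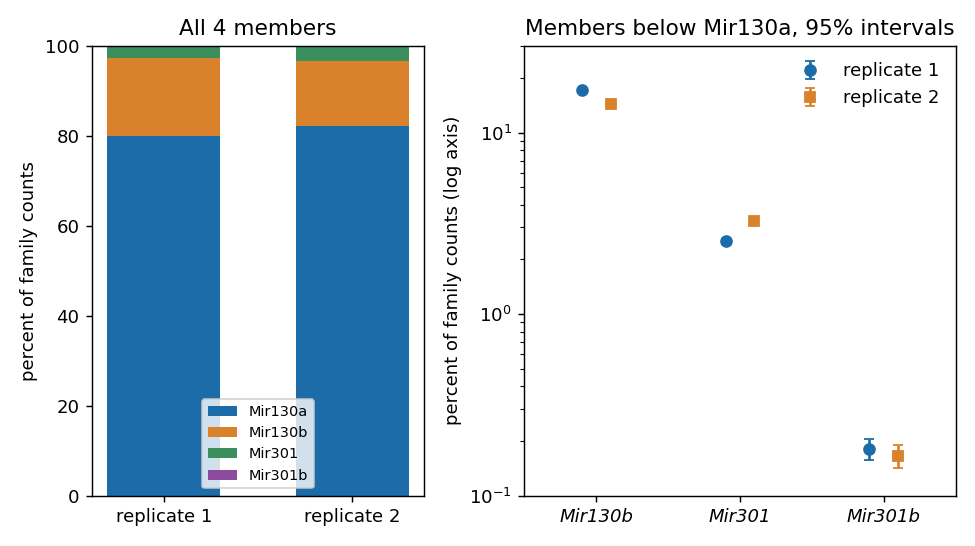
Share of family counts by member. Left, stacked bars from 0 to 100% for each replicate; right, the 3 lower members on a log axis with 95% Clopper-Pearson intervals, circles for replicate 1 and squares for replicate 2. The Mir130b share is 17.3% and 14.4% and the Mir301 share 2.51% and 3.25%, while the Mir301b intervals overlap.

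Each gene with 10 or more counts was also compared between the libraries by a two-sided exact binomial test with Benjamini-Hochberg adjustment over 440 genes. This compares 2 libraries, not 2 conditions, and takes in counting error only. Of all tested genes 44.5% passed at 0.05 (17.5% higher and 27.0% lower in replicate 2), and 79.2% of the 183 genes whose mean reached 100 CPM did. In the family 3 of 4 members passed, which are the 3 above 100 CPM, where most genes passed. With TMM scaling (edgeR), the split of all called genes moved from 77 higher and 119 lower to 96 higher and 98 lower.

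Mir130a was 1.08-fold higher in replicate 2 (log2 ratio 0.12, counting SE 0.0067, exact test adjusted p = 1.34e-66). Mir130b was lower in replicate 2 by a log2 ratio of -0.19 (counting SE 0.015, exact test adjusted p = 9.43e-34), a 1.14-fold difference. Mir301 showed the largest ratio of the 4, 1.37-fold higher in replicate 2 (log2 ratio 0.45, counting SE 0.035, exact test adjusted p = 4.17e-36). Members of 1 seed family differed in opposite directions between the pools: Mir130a and Mir301 were higher in replicate 2 and Mir130b in replicate 1. With TMM scaling the log2 ratios were 0.19 for Mir130a and -0.11 for Mir130b, with the same directions and calls.

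Mir301b did not pass (log2 ratio -0.05, interval -0.33 to 0.23, exact test adjusted p = 0.878), and its sign turned to 0.03 with TMM scaling. At 401 counts in all, a ratio the size of that of Mir130b would lie inside this interval, so it was not detectable at this depth. The calls of the other 3 held under all 7 alternatives of total, scaling, filter and strand.

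Among the 183 genes whose mean reached 100 CPM, Mir301 had the 23rd largest absolute log2 ratio, at 0.45 beside a median of 0.20, while Mir130b was 99th and Mir130a 128th. The median log2 ratio of the members was 0.03, beside -0.08 over all 440 tested genes, and the median absolute value was 0.15, beside 0.27. An edgeR fit without contrast put the common biological coefficient of variation between the pools at 22.9%, which corresponds to an SD of 0.47 for a log2 ratio. That fit used TMM scaling. With this scaling the ratio of Mir301 was 0.53, above that SD, and those of the other members were below it in size. By total counts each member's ratio was below that SD. Of all tested genes, 142 had a larger absolute ratio than Mir301, and 394 a larger one than Mir301b. Mir130a and Mir301 were higher in the pool in which the epithelial and intestinal markers, Mir206, Mir375 and Mir137 were higher too. Past the exact test, 3 of 4 hepatocyte, 2 of 3 erythroid and 2 of 4 mesenchymal markers were also higher there. So were the endothelial Mir126a and 1 of 5 leukocyte markers, while 1 erythroid, 1 mesenchymal and 1 pancreas marker were lower. The part of any of these markers in the differences was not tested.

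**Figure D4:**
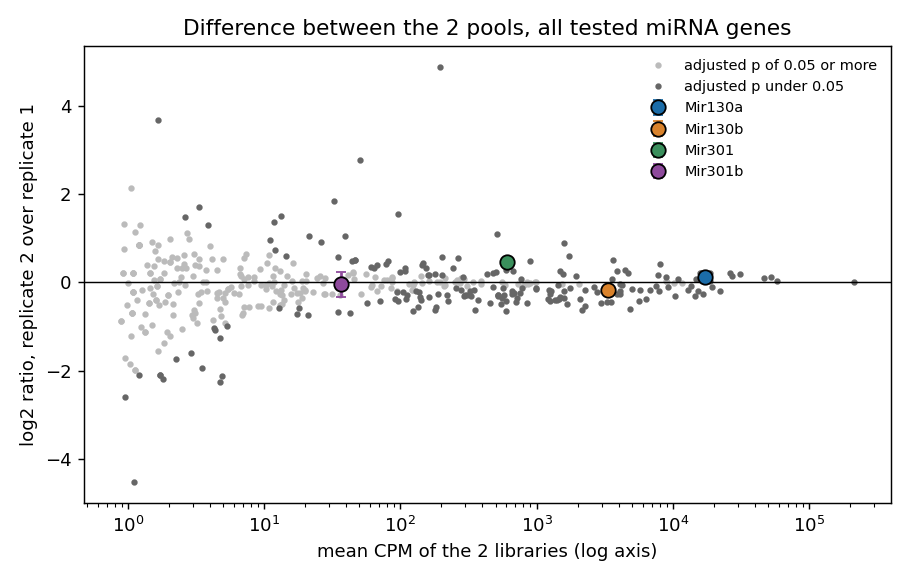
Log2 ratio of replicate 2 over replicate 1 against mean CPM (log axis) for the 440 tested miRNA genes. Grey points are other genes, darker where the adjusted p was under 0.05; coloured points are the members with 1.96 counting SEs. Mir301 lies at 0.45, Mir130a at 0.12, Mir301b at -0.05 and Mir130b at -0.19, among other genes of similar level on either side of 0.

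The neighbours Mir130b and Mir301b were compared within each library because they lie in 1 intron. Mir130b exceeded Mir301b 95.7-fold in replicate 1 (log2 6.58, counting SE 0.10) and 87.1-fold in the other library (log2 6.44, counting SE 0.11). The log2 ratio differed by -0.14 (replicate 2 minus replicate 1), with an interval of -0.42 to 0.15 that includes 0. The counting SE of this difference was 0.145, so at the depth of Mir301b a difference of the observed size could not be told from 0.

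Ratios between members of different loci are given beside it, as replicate 2 minus replicate 1 on the log2 scale. Mir130a over Mir130b differed by 0.30 (interval 0.27 to 0.33). Mir130b over Mir301 differed by -0.64 (interval -0.71 to -0.56), from 6.87-fold to 4.42-fold. Mir301 over Mir301b differed by 0.50 (0.21 to 0.79), from 13.9-fold to 19.7-fold. Mir130a over Mir301, at 31.9-fold and 25.3-fold, differed by -0.33 (-0.40 to -0.26). Mir130a over Mir301b, at 444-fold and 498-fold, differed by 0.17 (-0.12 to 0.45). Of the 6 pairs, the interval thus included 0 for 2, both with Mir301b, whose low count makes them wide, and these intervals cover counting error only. Whether the chromosome 16 pair kept its ratio better than the other pairs was not tested.

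Other mouse genes carry the family seed at bases 2 to 8 of a mature miRNA. Of 1738 mature miRNAs listed by RefSeq, 7 had it (0.403%), namely the 3 mature arms of Mir130a, Mir130b and Mir301 printed above and 4 outside the family. The latter are shown because their seed cannot be told from that of the members.
miR-130c: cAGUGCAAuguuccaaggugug
miR-721: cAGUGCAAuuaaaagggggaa
miR-6341: cAGUGCAAugauauugucacuau
miR-6389: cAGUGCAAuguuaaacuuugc

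Mir130c, Mir6341 and Mir6389 each had a row and no count in either library. A count of 0 allows up to 0.506 CPM and 0.588 CPM in the 2 libraries, below the level of Mir301b. Mir721 has no row and was not analysed here. Among listed genes with this seed, counts were found only for the 4 members.

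By these counts, which leave out multimapping reads, families with an overlapping seed were far less abundant. They are shown because 6 of their 7 seed letters run through the family seed, shifted by 1 base.
miR-19a-3p: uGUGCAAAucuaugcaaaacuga
miR-148a-3p: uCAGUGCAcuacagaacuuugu

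The 3 genes of the miR-148 and miR-152 family, which represses the DNA methyltransferase gene Dnmt1, came to 1969 CPM and 1873 CPM in replicates 1 and 2. The Mir130 and Mir301 family exceeded them by 10.4-fold and 11.6-fold. Mir148a led them (1546 ± 34.4 CPM), ahead of Mir148b (280 ± 23.8 CPM) and Mir152 (94.6 ± 9.83 CPM). By the exact test, 2 of the 3 (Mir148b and Mir152) were lower in replicate 2 and none was higher, but with TMM or DESeq2 scaling none passed in either direction.

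The 3 genes of the miR-19 family, which belong to the miR-17-92 clusters, summed to 74.5 CPM and 90.9 CPM. Mir19a (66.7 ± 12.6 CPM) was the highest and the only one past the exact test, higher in replicate 2. Mir19b-1 (11.3 ± 0.467 CPM) and Mir19b-2 (4.69 ± 0.528 CPM) make the same mature miRNA, and their counts may be low because multimapping reads are not in them.

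Among the listed miRNAs known from hematopoietic stem and progenitor cells, Mir130a was one of the most abundant. These counts leave out multimapping reads. Of 12 other genes listed, 11 had a row, and they summed to 73021 CPM and 73469 CPM. Mir126a, which is also endothelial, stood above Mir130a (47008 ± 2175 CPM), and Mir99a (13641 ± 504 CPM) and Mir99b (5664 ± 1170 CPM) stood below it. The ranges of Mir126a, Mir130a and Mir99a did not overlap. By the same test 2 of the 11 were higher and 5 lower in replicate 2, a split that turned to 4 higher and 2 lower with TMM or DESeq2 scaling. Their median log2 ratio was -0.04, beside -0.08 over all tested genes, and 0.04 with TMM scaling. Mir126a was higher in replicate 2, as Mir130a was, and Mir99b was lower, under both scalings as well. The cells from which the Mir130a reads came were not resolved in these bulk counts.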

How the data were processed

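Raw counts per miRNA hairpin gene were deposited for both libraries; assembly mm10 and annotation M4 are named per the text description deposited with them, while for the aligner and counter these sources give no name. Column 3 of each table, the strand with the larger total, was used as the annotated-strand count, and the 4 tally rows (unmapped, multimapping and the like) were left out of totals. Names and coordinates came from GENCODE M21 on the same assembly by versionless identifier (1894 of 1973 rows matched). CPM used the annotated-strand total of each library. Means and SDs are over 2 pools, intervals are 95% Clopper-Pearson, and intervals of log2 ratios are 1.96 counting SEs with 0.5 added to each count. A quasi-likelihood test has no contrast within 1 group, so genes were compared between libraries with the exact binomial test, checked on simulated counts. P-values measure only these libraries, and both pools carry 1 donor record in the labels. Genes named beside the members are their rank neighbours, the 3 nearest in level and the 3 highest of each fixed gene list; cell type markers are named where they lead a list, are at 0 or differ between the pools, chosen after their values were seen. Members and lists were chosen with earlier results of these data known. Alternatives were the strand column, totals, scaling (edgeR 4.0.16, DESeq2 1.42.0), count filters, pseudocount and single libraries. Folding energies are from ViennaRNA 2.7.2.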

Additional observations from a re-analysis of the deposited data

Results flagged for a closer look

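Mir130a had counts on the strand opposite its hairpin, a column outside the main measurement, above what a count of 0 allows. Replicate 1 held 86 such counts, 0.0882% of those on either strand, and replicate 2 held 70, or 0.0770%. The 95% Clopper-Pearson intervals were 0.0706% to 0.109% and 0.0600% to 0.0973%. No gene is annotated on that strand. Mir130b had 0 of 21005 and 0 of 15891 counts there, which allows up to 0.0143% and 0.0189%, below the share of Mir130a. Mir301 and Mir301b also had none, but their depth allows up to 0.0981% and 1.37% in replicate 1 and 0.0835% and 1.65% in replicate 2. A share like that of Mir130a was thus not detectable in either library taken alone. No limit was computed over both libraries together. Over all gene rows, counts on the other strand made up 8.13% of those on either strand in replicate 1 and 8.22% in replicate 2. Of the 183 genes whose mean reached 100 CPM, 26 had counts on the other strand, and in 3 their share exceeded 1%. The median share of the 26 was 0.0417%, and Mir130a stood 10th among them. The cause was not tested.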

How the results depend on the processing

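Of 72 values recomputed under alternatives fixed with the design, 57 stayed the same, 13 levels moved and 2 signs turned. Staying the same meant keeping direction and call or, for values without a test, moving by no more than the spread between the pools. A count of called genes stayed the same if it was within 1.5-fold of the main count. Some of the 57 could hardly change. Ratios among Mir130b, Mir301 and Mir301b, which have no other-strand counts, are the same irrespective of strand. Count filters do not enter a log2 ratio. TMM and DESeq2 factors shift the 2 libraries in opposite directions, which nearly cancels in a mean level. Levels follow the total used as denominator. Without Mir122 in the total, the means were 21772 CPM for Mir130a, 4234 CPM for Mir130b, 776 CPM for Mir301 and 46.2 CPM for Mir301b, and the family share was 2.68%. Scaled to all tallied reads, they were 7174, 1395, 256 and 15.2, and the share was 0.884%. Irrespective of strand, Mir130a was at 15728 CPM, Mir301b at 33.3 CPM and the share at 1.94%. The 2 turned signs are the log2 ratio of Mir301b, 0.027 with TMM and 0.024 with DESeq2 scaling; it passed the test under none of 7 alternatives (adjusted p 0.831 to 0.934). Ratios of Mir130a (0.11 to 0.19), Mir130b (-0.19 to -0.11) and Mir301 (0.45 to 0.53) passed under all 7. Leaving out 1 of 2 libraries cannot move a mean by its SD, so that setting is not counted. The pseudocount does not enter the exact test, so it is counted only for the ratios between members, which have no test. Between 179 and 206 genes were called. No paired analysis was possible because there is 1 group. With 219 and 182 counts, Mir301b is the member that depth limits most.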
